A study of Homo sapiens with 6 samples.

Results

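Transcripts of 39 integrin subunits and focal adhesion adaptors were examined in 143B cells, a human osteosarcoma line, among the 58825 genes of the deposited table. The genes were taken by name: 12 alpha subunits, 7 beta subunits and 20 adaptors and kinases that link integrins to actin and to signalling. Poly(A) RNA was sequenced in 3 libraries from cells given a siRNA against SIGLEC15, a Siglec receptor that binds sialic acids, and in 3 libraries from cells given a negative-control (NC) siRNA. Both groups carry the 143B background, were grown with serum and received 80 nmol/L siRNA with the HiPerfect reagent, and RNA was taken 36 h later. The series was designed to compare the cells under these siRNAs. The labels name a single line and are silent on whether replicates were separate cultures, so p-values here reflect only the spread between libraries, which may be technical.

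Integrins are membrane receptors made of an alpha and a beta subunit. The alpha subunit largely decides which matrix protein is bound: collagens, laminins, the RGD motif of fibronectin and vitronectin, or VCAM1. Talins and kindlins bind the beta tail and switch the receptor on, the ILK-PINCH-parvin complex and filamin and alpha-actinin tie it to actin, and paxillin, p130Cas, Crk proteins and the kinases FAK and Src carry the signal. In mesenchymal tumours, osteosarcoma included, these receptors serve attachment to matrix and migration.

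Promoter sequences are shown for the 2 members that passed the test, ITGAV and ITGA11, and for ITGB1, the member with the highest level, which did not pass. Each runs 5′ to 3′ from 250 bases before to 50 bases after the RefSeq start site on GRCh38.p14, and capitals mark matches to the motifs named after the sequences. The ITGAV window is chr2:186589806-186590105 on the plus strand, the ITGA11 window is chr15:68432114-68432413 on the minus strand and the ITGB1 window is chr10:32958181-32958480 on the minus strand.
ITGAV: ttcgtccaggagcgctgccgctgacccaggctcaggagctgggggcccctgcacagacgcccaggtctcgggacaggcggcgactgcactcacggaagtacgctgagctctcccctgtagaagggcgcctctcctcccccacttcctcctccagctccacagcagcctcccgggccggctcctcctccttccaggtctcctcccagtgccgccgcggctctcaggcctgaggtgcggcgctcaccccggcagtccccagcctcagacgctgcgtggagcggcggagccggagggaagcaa
ITGA11: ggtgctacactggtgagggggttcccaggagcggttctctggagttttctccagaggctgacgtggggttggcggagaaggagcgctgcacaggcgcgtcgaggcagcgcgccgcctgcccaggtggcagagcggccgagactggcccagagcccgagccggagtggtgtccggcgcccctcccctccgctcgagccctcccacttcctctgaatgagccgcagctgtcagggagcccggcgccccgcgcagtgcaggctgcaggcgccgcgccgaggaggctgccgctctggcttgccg
ITGB1: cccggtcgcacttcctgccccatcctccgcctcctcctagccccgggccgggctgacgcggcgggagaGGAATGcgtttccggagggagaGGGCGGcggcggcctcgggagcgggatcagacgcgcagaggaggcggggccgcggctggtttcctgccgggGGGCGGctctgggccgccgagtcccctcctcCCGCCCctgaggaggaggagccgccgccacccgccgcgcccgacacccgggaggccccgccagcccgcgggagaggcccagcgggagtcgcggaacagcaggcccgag
The RefSeq start sites of ITGAV and ITGA11 lay at the gene starts given in the deposited table (distance 0 bases), whereas that of ITGB1 lay 47562 bases inside the gene as the table gives it. All 3 windows were rich in G and C, at 70.7% for ITGAV, 72.0% for ITGA11 and 78.3% for ITGB1, against a median of 58.7% over 35116 RefSeq promoters. Short motifs of 4 kinds were searched on both strands, and no match overlapped another in these windows. The GC box GGGCGG is held by 45.0% of all promoters of this length, the AP-1 site TGANTCA by 7.71%, the TEAD site GGAATG by 14.0% and the ETS site CCGGAAG by 10.3%. The ITGB1 window held GGGCGG at -160, -89 and -58 and GGAATG at -182, counted from the start site. The ITGAV and ITGA11 windows held no match to these letters. Of the 39 members, 29 have a promoter entry in the RefSeq table.

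Libraries held 57966691 to 67655254 counts. The first principal component of the expression values (26.84% of the variance) separated the groups, and the second (20.25%) set SIGLEC15 siRNA replicate 1 and NC siRNA replicate 3 apart from the other libraries. SIGLEC15 itself had 12, 8 and 6 counts in SIGLEC15 siRNA replicates 1, 2 and 3 and 12, 10 and 22 counts in NC siRNA replicates 1, 2 and 3 (log2 fold change -0.82, SE 0.598, edgeR adjusted p = 0.529), so a lower level of the target was not shown at this depth. VIM, the mesenchymal intermediate filament gene, averaged 437 ± 21.8 FPKM with SIGLEC15 siRNA and 482 ± 18.3 FPKM with NC siRNA (SD, n = 3 each), while COL1A2 and ALPL, osteoblast markers, and THY1 were at or near 0. Of 8 tested mesenchymal and osteoblast markers, COL1A1 and SPARC rose, SPARC to 109 ± 1.81 FPKM with SIGLEC15 siRNA, against 62.6 ± 1.81 FPKM with NC siRNA (SD, n = 3 each; edgeR adjusted p = 0.00137); their part in the results below was not tested. RUNX2 had the largest log2 fold change of the tested markers in that list, 2.00, but did not pass (edgeR adjusted p = 0.113). The summed FPKM of that list was 559 to 602 with SIGLEC15 siRNA and 565 to 605 with NC siRNA. In that sum the lower mean of VIM stood against the higher mean of SPARC, so the sum does not show that single markers stayed level. The leukocyte marker PTPRC and the epithelial marker CDH1 had no counts, 8 of 12 leukocyte and 5 of 5 endothelial markers averaged below 0.1 FPKM, and the epithelial list kept 3 of 6 markers above that, KRT8, KRT18 and EPCAM. The summed FPKM of the epithelial list was 222 to 242 with SIGLEC15 siRNA and 211 to 255 with NC siRNA. That of the leukocyte list was 13.4 to 21.2 with SIGLEC15 siRNA and 18.9 to 24.6 with NC siRNA. Most of the leukocyte sum was CD68, and the integrin chain ITGAE averaged 1.87 FPKM over the 6 libraries.

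The alpha chains of the RGD receptor for vitronectin and fibronectin (ITGAV) and of a fibrillar collagen receptor (ITGA11) rose with SIGLEC15 siRNA, and no member fell. ITGAV was 1.58-fold and ITGA11 1.37-fold higher. The most abundant receptor chain, ITGB1, and all 20 adaptors and kinases did not pass. Of 37 members with enough counts to test, 2 (5.41%) passed at an edgeR quasi-likelihood Benjamini-Hochberg adjusted p under 0.05, 2 higher and 0 lower, against 4.65% of all 18910 genes tested, of which 2.22% were called higher and 2.43% lower. The share of members called was therefore near that of all genes. By the unadjusted p under 0.05, 7 members passed, 4 higher and 3 lower, which is 18.9% against 19.1% of all genes. The median log2 fold change was 0.10 over the tested members and -0.01 over all tested genes, and the median size of the change without its sign was 0.13 over members and 0.22 over all genes. These medians were not matched for level: 26 of the 37 tested members averaged at least 3 FPKM, against 8410 of the 18910 genes tested. In bulk RNA a change in the make-up of the cells and a change in RNA per cell cannot be told apart.

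**Figure D1:**
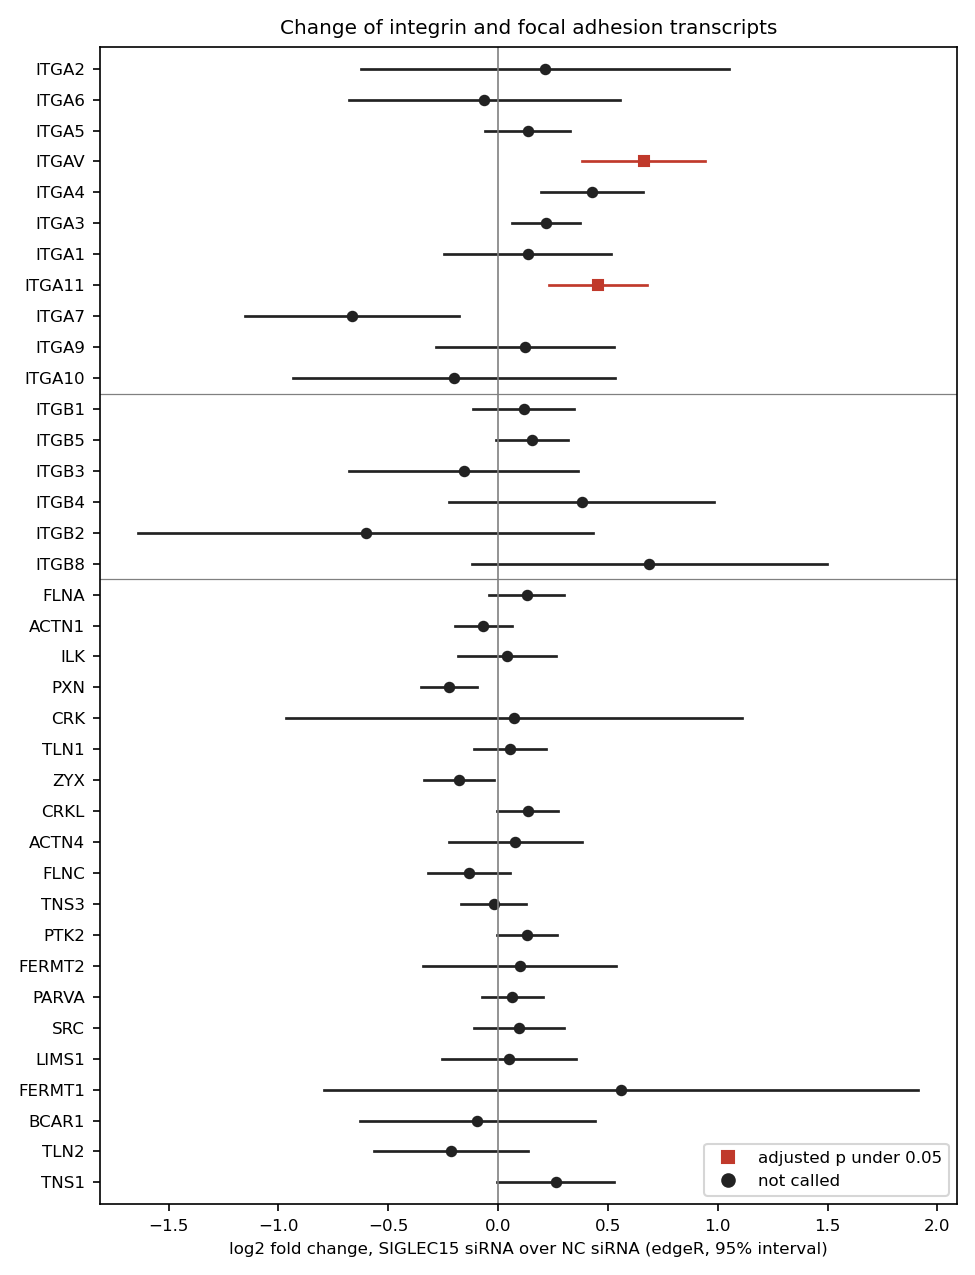
Log2 fold change (x axis, edgeR, SIGLEC15 siRNA over NC siRNA) with its 95% interval for the 37 tested members, ordered by mean FPKM within alpha subunits (top), beta subunits (middle) and adaptors (bottom). Red squares are the 2 members with an adjusted p under 0.05, ITGAV at 0.66 and ITGA11 at 0.45, and black circles the 35 that were not called.

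The RGD-binding alpha chains were measured first. ITGAV (ENSG00000138448, chromosome 2, 186590056 to 186680901, plus strand, in the table's coordinates) had 13.6, 18.6 and 16.8 FPKM in SIGLEC15 siRNA replicates 1, 2 and 3, against 10.97, 10.65 and 9.26 FPKM in NC siRNA replicates 1, 2 and 3. All SIGLEC15 siRNA libraries lay above all NC siRNA libraries, with replicate 1 the lowest of its group. The means were 16.3 ± 2.54 FPKM with SIGLEC15 siRNA and 10.3 ± 0.907 FPKM with NC siRNA (SD, n = 3 each), resting on 8906 to 11095 counts with SIGLEC15 siRNA and 5615 to 6591 counts with NC siRNA. The log2 fold change was 0.66 (SE 0.118, 95% interval 0.38 to 0.94, edgeR adjusted p = 0.0294). The call was kept without SIGLEC15 siRNA replicate 1 (0.0249) and ended without SIGLEC15 siRNA replicate 2 (adjusted p = 0.0988) or 3 (0.0891), without NC siRNA replicate 1 (0.0805), 2 (0.0988) or 3 (0.0957), and without SIGLEC15 siRNA replicate 1 and NC siRNA replicate 3 together (0.0626), with log2 fold changes of 0.58 to 0.77 when single libraries were left out. ITGA5, the fibronectin receptor chain, had the highest mean of this class over the 6 libraries, with a range that overlapped that of ITGAV, which averaged higher with SIGLEC15 siRNA. It stood at 15.6, 16.1 and 14.5 FPKM with SIGLEC15 siRNA and 15.5, 13.7 and 12.9 FPKM with NC siRNA. Its groups overlapped (log2 fold change 0.13, 95% interval -0.06 to 0.33, edgeR adjusted p = 0.44). ITGA8, the RGD-binding chain known from kidney development, was not tested: it had 4 counts in NC siRNA replicate 1 and 0 in the other 5 libraries, where the table lists 0.0001 FPKM in place of 0.

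Among collagen-binding chains, ITGA11 (ENSG00000137809, chromosome 15, 68296532 to 68432163, minus strand) had 1.44, 1.42 and 1.52 FPKM in SIGLEC15 siRNA replicates 1, 2 and 3, against 1.05, 1.07 and 1.08 FPKM in NC siRNA replicates 1, 2 and 3. The groups did not overlap, and the spread within each was small: 1.46 ± 0.0556 FPKM with SIGLEC15 siRNA and 1.07 ± 0.0185 FPKM with NC siRNA (SD, n = 3 each). The level was low, resting on 1060 to 1331 counts with SIGLEC15 siRNA and 821 to 867 counts with NC siRNA. The log2 fold change was 0.45 (SE 0.0935, 95% interval 0.23 to 0.68, edgeR adjusted p = 0.0465). The call ended without any 1 of the 6 libraries (adjusted p = 0.11, 0.111 and 0.119 without SIGLEC15 siRNA replicates 1, 2 and 3 and 0.145, 0.146 and 0.109 without NC siRNA replicates 1, 2 and 3).

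ITGA2, the alpha chain of the main epithelial and platelet collagen receptor, was far more abundant than ITGA11, at 19.4, 31.3 and 28.6 FPKM with SIGLEC15 siRNA and 32.1, 24.6 and 11.7 FPKM with NC siRNA. Its lowest libraries were NC siRNA replicate 3 and SIGLEC15 siRNA replicate 1, the 2 that lay apart on the second principal component; the part of that component in the value was not tested. The difference did not pass (log2 fold change 0.21, 95% interval -0.62 to 1.05, edgeR adjusted p = 0.811), and without NC siRNA replicate 3 its sign turned (-0.10). ITGA1, a receptor chain for collagens of basement membranes, ranged from 1.32 to 1.69 FPKM with SIGLEC15 siRNA and from 1.13 to 1.68 FPKM with NC siRNA. Its gene contains PELO on the same strand, which had 26511 counts over the 6 libraries against 12149 for ITGA1, so reads of the pair may have been split between them. ITGA10, a collagen receptor chain of cartilage, was low, and its groups overlapped (0.302 to 0.602 FPKM with SIGLEC15 siRNA and 0.36 to 0.66 FPKM with NC siRNA).

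Neither VCAM1-binding chain passed. ITGA4, the chain that binds VCAM1 and fibronectin, had 10.5, 12.7 and 12.2 FPKM with SIGLEC15 siRNA and 9.62, 8.92 and 7.77 FPKM with NC siRNA. The groups did not overlap, and the log2 fold change of 0.43 (SE 0.0981, 95% interval 0.19 to 0.66) stood just outside the threshold, at an edgeR adjusted p of 0.0635. ITGA9, which binds tenascin and VCAM1, averaged 0.548 ± 0.0938 FPKM with SIGLEC15 siRNA and 0.503 ± 0.0489 FPKM with NC siRNA (SD, n = 3 each), with overlapping groups.

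The 3 laminin-binding chains did not pass either, and their values went different ways. ITGA6 had 30.6, 17.9 and 19.2 FPKM with SIGLEC15 siRNA and 17.4, 27.5 and 25.8 FPKM with NC siRNA. High and low libraries occurred in both groups (log2 fold change -0.06, 95% interval -0.68 to 0.56, edgeR adjusted p = 0.935). ITGA3 had 9.65, 9.62 and 10.3 FPKM with SIGLEC15 siRNA and 8.44, 8.83 and 8.11 FPKM with NC siRNA; its groups did not overlap, but the difference was small (log2 fold change 0.22, 95% interval 0.06 to 0.37, edgeR adjusted p = 0.126). ITGA7, known as the laminin receptor chain of muscle, had 0.566, 0.493 and 0.388 FPKM with SIGLEC15 siRNA and 0.718, 0.669 and 0.898 FPKM with NC siRNA. Its log2 fold change was -0.67 (95% interval -1.15 to -0.18, edgeR adjusted p = 0.138). BLOC1S1, which overlaps its first bases on the other strand, had 10302 counts against 1773 for ITGA7. They share only a few bases, as BLOC1S1 starts at 55716037 and ITGA7 ends at 55716043. Whether the counting used strand is not stated in the labels, so reads from the overlap of such pairs cannot be told apart.

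**Figure D2:**
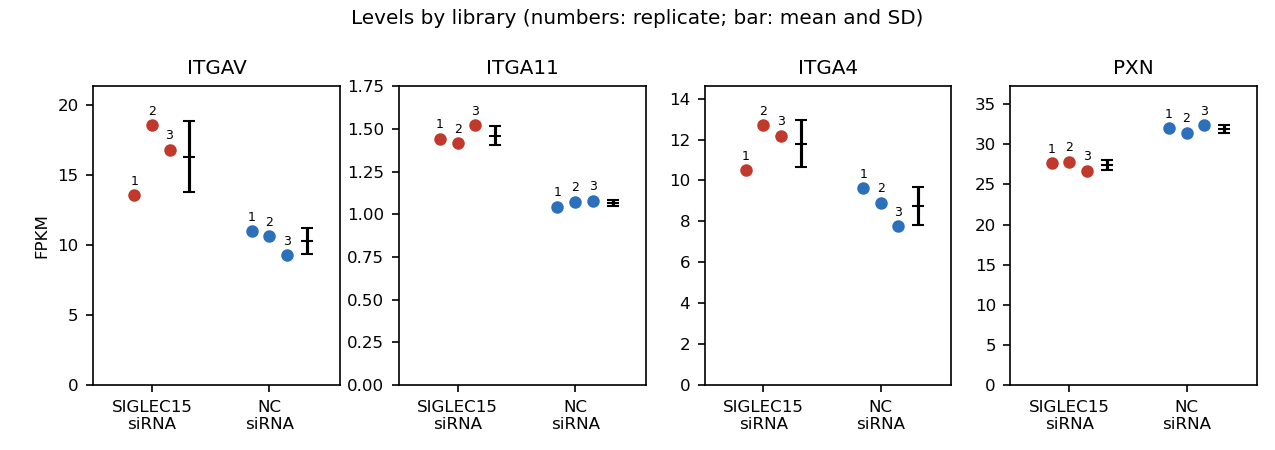
FPKM (y axis, from 0) by library for the 2 called members, ITGAV and ITGA11, and for the 2 uncalled members with the next smallest p, ITGA4 and PXN; digits are replicate numbers and bars the mean and SD of 3 libraries. In ITGAV, ITGA11 and ITGA4 every SIGLEC15 siRNA library lies above every NC siRNA library, and in PXN every one lies below.

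Of the beta chains none passed, ITGB1 included, with which most alpha chains pair. ITGB1 (ENSG00000150093, chromosome 10, 32900318 to 33005792, minus strand) had 74.8, 80.6 and 93.6 FPKM in SIGLEC15 siRNA replicates 1, 2 and 3, against 82.7, 73.9 and 72.8 FPKM in NC siRNA replicates 1, 2 and 3. The groups overlapped (means 82.97 ± 9.64 FPKM with SIGLEC15 siRNA and 76.45 ± 5.44 FPKM with NC siRNA, SD, n = 3 each; log2 fold change 0.12, SE 0.0966, 95% interval -0.11 to 0.35, edgeR adjusted p = 0.582). ITGB5, a partner of ITGAV in vitronectin binding, had 24.2, 26.4 and 23.0 FPKM with SIGLEC15 siRNA and 23.0, 22.3 and 20.6 FPKM with NC siRNA (log2 fold change 0.15, 95% interval -0.01 to 0.32, edgeR adjusted p = 0.293). In FPKM its lowest SIGLEC15 siRNA library, replicate 3, lay just under the highest NC siRNA library, replicate 1.

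The other partners of ITGAV were scarce. ITGB3, its partner on platelets, osteoclasts and endothelium, ranged from 0.905 to 1.39 FPKM with SIGLEC15 siRNA and from 0.942 to 1.43 FPKM with NC siRNA. ITGB8, a partner in releasing latent TGF-beta, had 37 to 53 counts a library with SIGLEC15 siRNA and 23 to 32 counts with NC siRNA, and its log2 fold change of 0.69 carried a 95% interval of -0.12 to 1.5 (edgeR adjusted p = 0.34). ITGB6, the epithelial partner, was not tested: it had 8 counts in NC siRNA replicate 3 and 0 in the other 5 libraries. ITGB4, the hemidesmosome partner of ITGA6, stayed between 0.212 and 0.402 FPKM, and GALK1, which overlaps it on the other strand, had 4503 counts against 893. ITGB2, the leukocyte beta chain, had 19 to 42 counts with SIGLEC15 siRNA and 31 to 54 counts with NC siRNA. Against its 202 counts in total, the overlapping ITGB2-AS1 on the other strand had 341 and AL844908 on the same strand 124. Some reads counted for ITGB2 may therefore belong to these genes.

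By FPKM, a level scaled for gene length, 6 alpha and 2 beta chains averaged at least 5 FPKM over the 6 libraries. ITGA2 and ITGA6 led the alpha chains at 24.6 and 23.1 FPKM, and their ranges over the libraries overlapped. ITGA5, ITGAV, ITGA4 and ITGA3 followed at 14.7, 13.3, 10.3 and 9.15 FPKM, where each range overlapped the next, and ITGA1 at 1.47 FPKM lay clearly below them. Among the beta chains ITGB1 at 79.7 FPKM, ITGB5 at 23.3 FPKM and ITGB3 at 1.17 FPKM did not overlap. The order of levels depends on the gene length used. The length implied by counts and FPKM was 1.61 times the merged GENCODE 29 exon length for ITGA4 and 0.733 times for PARVA. For ITGA2 and ITGB1 it was 1.19 times, so the deposited FPKM did not scale alike with this exon length for every gene. For the alpha chains the level per kilobase of the longest coding GENCODE 29 transcript was an alternative chosen after seeing the data. The means were 32.8 CPM per kilobase for ITGA6, 31.1 for ITGA4, 29.3 for ITGA2, 29.1 for ITGA5, 21.9 for ITGA3 and 18.5 for ITGAV. Ranges over the libraries overlapped among ITGA6 (24.7 to 43.7), ITGA4 (23.6 to 38.3), ITGA2 (13.95 to 38.1) and ITGA5 (25.5 to 31.7).

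Read as a share of all alpha FPKM, ITGAV made up 13.1%, 16.8% and 15.8% in SIGLEC15 siRNA replicates 1, 2 and 3, against 11.1%, 10.8% and 11.7% in NC siRNA replicates 1, 2 and 3. Every SIGLEC15 siRNA share lay above every NC siRNA share. The same held for ITGA4, which was not called (10.1%, 11.5% and 11.5% against 9.76%, 9.04% and 9.78%). The shares of the called ITGA11 overlapped (1.39%, 1.28% and 1.44% against 1.06%, 1.09% and 1.36%), and those of ITGA7 lay apart the other way. ITGA2, the alpha chain with the highest mean FPKM over the 6 libraries, took 24.6% ± 5.15 with SIGLEC15 siRNA and 24.1% ± 8.96 with NC siRNA (SD, n = 3 each), a difference of 0.553 points (exact two-sided permutation p = 1). ITGA6 took 21.3% ± 7.24 with SIGLEC15 siRNA and 26.0% ± 7.59 with NC siRNA (SD, n = 3 each), a larger mean share than ITGA2 in the NC group. ITGB1 took 76.0% ± 2.97 of beta FPKM with SIGLEC15 siRNA and 76.4% ± 0.863 with NC siRNA (SD, n = 3 each), a difference of -0.417 points (exact two-sided permutation p = 0.9), where 3 against 3 libraries cannot give a p under 0.1. Summed alpha FPKM was 104, 111 and 106 with SIGLEC15 siRNA and 98.5, 98.6 and 79.4 with NC siRNA. Set against ITGB1 the alpha sum was 1.38, 1.38 and 1.13 times as high with SIGLEC15 siRNA and 1.19, 1.34 and 1.09 times with NC siRNA, with overlapping groups.

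**Figure D3:**
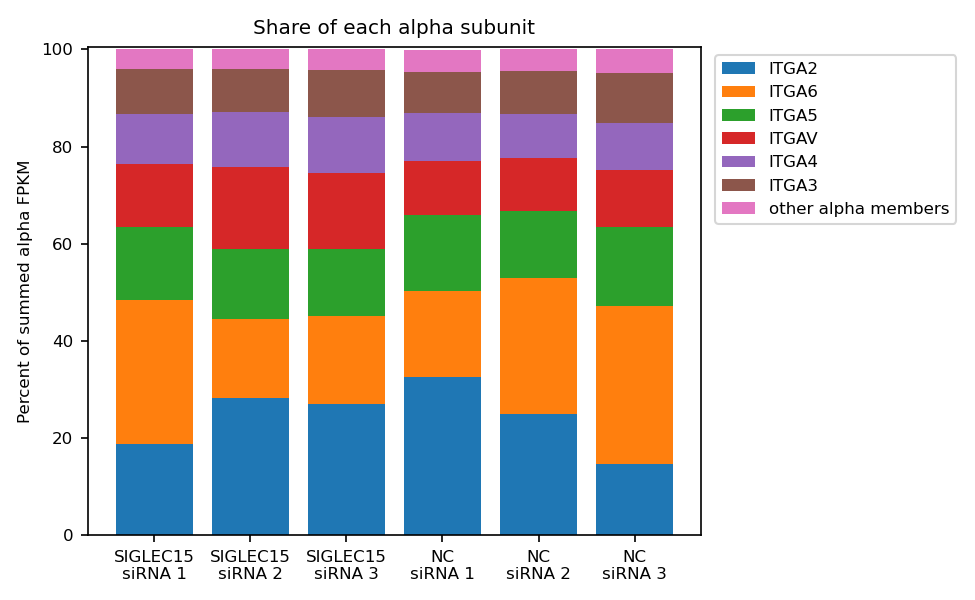
Share of each alpha subunit in the summed FPKM of the 12 alpha subunits (y axis, percent) in each of the 6 libraries. ITGA2 varies from 14.7% in NC siRNA replicate 3 to 32.5% in NC siRNA replicate 1, while ITGAV holds 13.1% to 16.8% with SIGLEC15 siRNA and 10.8% to 11.7% with NC siRNA.

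The 20 adaptors and kinases did not pass, 13 with a positive and the others with a negative log2 fold change; 17 averaged at least 5 FPKM. Of the 4 integrin activators, TLN1, the talin that opens integrins by binding the beta tail, had 24.6, 27.4 and 26.6 FPKM with SIGLEC15 siRNA and 26.9, 25.6 and 23.2 FPKM with NC siRNA. The groups overlapped, and the log2 fold change of 0.05 had a 95% interval of -0.11 to 0.22. Its relative TLN2 ranged from 0.623 to 0.777 FPKM with SIGLEC15 siRNA and from 0.647 to 0.877 FPKM with NC siRNA. The kindlin FERMT2, the talin co-activator of mesenchymal cells, ranged from 8.498 to 12.5 FPKM with SIGLEC15 siRNA and from 8.08 to 11.7 FPKM with NC siRNA.

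FERMT1, the kindlin of epithelia, moved between libraries of the same group more than any other member whose spread was ranked. It had 9.09, 3.38 and 9.43 FPKM with SIGLEC15 siRNA and 8.98, 3.62 and 2.38 FPKM with NC siRNA. SIGLEC15 siRNA replicate 2 and NC siRNA replicates 2 and 3 were low, and the interval of the log2 fold change ran from -0.79 to 1.91. CRK, the adaptor that couples paxillin and p130Cas to downstream signalling, had 34.6, 35.1 and 15.7 FPKM with SIGLEC15 siRNA and 34.2, 13.03 and 33.8 FPKM with NC siRNA. SIGLEC15 siRNA replicate 3 and NC siRNA replicate 2 were low while the other 4 libraries agreed closely, so the interval ran from -0.97 to 1.11 (log2 fold change 0.07, edgeR adjusted p = 0.955).

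**Figure D4:**
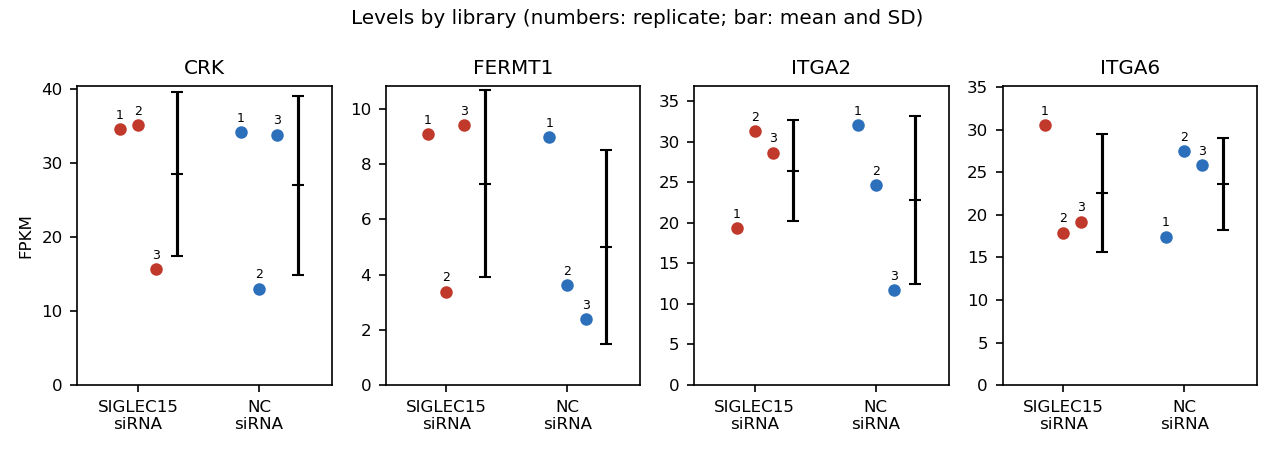
FPKM (y axis, from 0) by library for the 4 members with the largest spread within groups, CRK, FERMT1, ITGA2 and ITGA6; digits are replicate numbers and bars the mean and SD of 3 libraries. The low libraries of CRK (SIGLEC15 siRNA replicate 3 at 15.7 and NC siRNA replicate 2 at 13.03 FPKM) differ from those of ITGA2 (SIGLEC15 siRNA replicate 1 at 19.4 and NC siRNA replicate 3 at 11.7 FPKM).

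Of the scaffolds, PXN and ZYX varied little between libraries of a group. PXN, which encodes paxillin, the docking protein for FAK and Crk, had 27.7, 27.9 and 26.7 FPKM with SIGLEC15 siRNA and 32.03, 31.4 and 32.4 FPKM with NC siRNA. The groups lay apart by several times their spread (27.4 ± 0.623 FPKM with SIGLEC15 siRNA and 31.96 ± 0.493 FPKM with NC siRNA, SD, n = 3 each), yet the log2 fold change of -0.22 (SE 0.0535, 95% interval -0.35 to -0.09) did not pass (edgeR adjusted p = 0.0721). ZYX, the zyxin scaffold of tensed adhesions and stress fibres, had 23.6, 22.4 and 22.1 FPKM with SIGLEC15 siRNA and 25.7, 24.8 and 26.6 FPKM with NC siRNA, again without overlap (log2 fold change -0.18, 95% interval -0.34 to -0.02, edgeR adjusted p = 0.213).

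CRKL, a relative of CRK, stayed between 18.6 and 18.9 FPKM with SIGLEC15 siRNA and between 16.5 and 17.4 FPKM with NC siRNA (log2 fold change 0.13, edgeR adjusted p = 0.281). Unlike CRK, none of its libraries stood low. BCAR1, which encodes p130Cas, the stretch-sensing substrate of Src, ranged from 3.10 to 5.32 FPKM with SIGLEC15 siRNA and from 3.51 to 5.28 FPKM with NC siRNA. PTK2, which encodes FAK, had 11.7, 13.03 and 12.3 FPKM with SIGLEC15 siRNA and 11.5, 11.4 and 10.8 FPKM with NC siRNA, groups that did not overlap (log2 fold change 0.13, 95% interval -0.01 to 0.27, edgeR adjusted p = 0.288). SRC, the kinase that FAK recruits, averaged 7.92 ± 0.625 FPKM with SIGLEC15 siRNA and 7.40 ± 0.41 FPKM with NC siRNA (SD, n = 3 each).

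No link to actin passed the test. ILK, the pseudokinase at the centre of the ILK-PINCH-parvin complex, had 39.2, 39.8 and 36.4 FPKM with SIGLEC15 siRNA and 40.1, 32.5 and 39.4 FPKM with NC siRNA (log2 fold change 0.04, 95% interval -0.18 to 0.27). TAF10, which overlaps ILK on the other strand, had a count of 20.6% of that of ILK. PARVA, the parvin of the complex, had the smallest within-group spread of the 8410 genes with a mean of at least 3 FPKM, at 8.46, 8.36 and 8.30 FPKM with SIGLEC15 siRNA and 8.02, 8.02 and 7.98 FPKM with NC siRNA. Its groups lay apart by a log2 fold change of 0.06 (95% interval -0.07 to 0.20, edgeR adjusted p = 0.623). LIMS1, which encodes PINCH1, ranged from 5.44 to 7.47 FPKM with SIGLEC15 siRNA and from 6.15 to 6.21 FPKM with NC siRNA, and its near copies LIMS3 and LIMS4 held 94 to 215 and 91 to 256 counts a library, so some reads may have been divided among them.

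FLNA, the main filamin, had the highest FPKM of the actin linkers, but per kilobase of the longest coding transcript ACTN1 lay above it, at 143 against 106 CPM per kilobase with ranges apart. FLNA had 71.1, 76.8 and 76.4 FPKM with SIGLEC15 siRNA and 74.1, 68.8 and 62.0 FPKM with NC siRNA. The groups overlapped (log2 fold change 0.13, 95% interval -0.04 to 0.30, edgeR adjusted p = 0.395). ACTN1, the alpha-actinin of stress fibres, had 41.2, 42.0 and 42.2 FPKM with SIGLEC15 siRNA and 46.2, 42.8 and 42.4 FPKM with NC siRNA, groups that almost touched. ACTN4, its close relative, averaged 18.3 ± 2.36 FPKM with SIGLEC15 siRNA and 17.4 ± 2.02 FPKM with NC siRNA (SD, n = 3 each). The muscle filamin FLNC averaged 11.8 ± 0.322 FPKM with SIGLEC15 siRNA and 12.9 ± 1.26 FPKM with NC siRNA, and the tensin TNS3 12.1 ± 0.775 FPKM with SIGLEC15 siRNA and 12.2 ± 0.468 FPKM with NC siRNA (SD, n = 3 each). TNS1, another tensin, was low, at 0.623 ± 0.0272 FPKM with SIGLEC15 siRNA and 0.519 ± 0.0501 FPKM with NC siRNA (SD, n = 3 each), without overlap (log2 fold change 0.26, 95% interval -0.00259 to 0.53, edgeR adjusted p = 0.267).

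**Figure D5:**
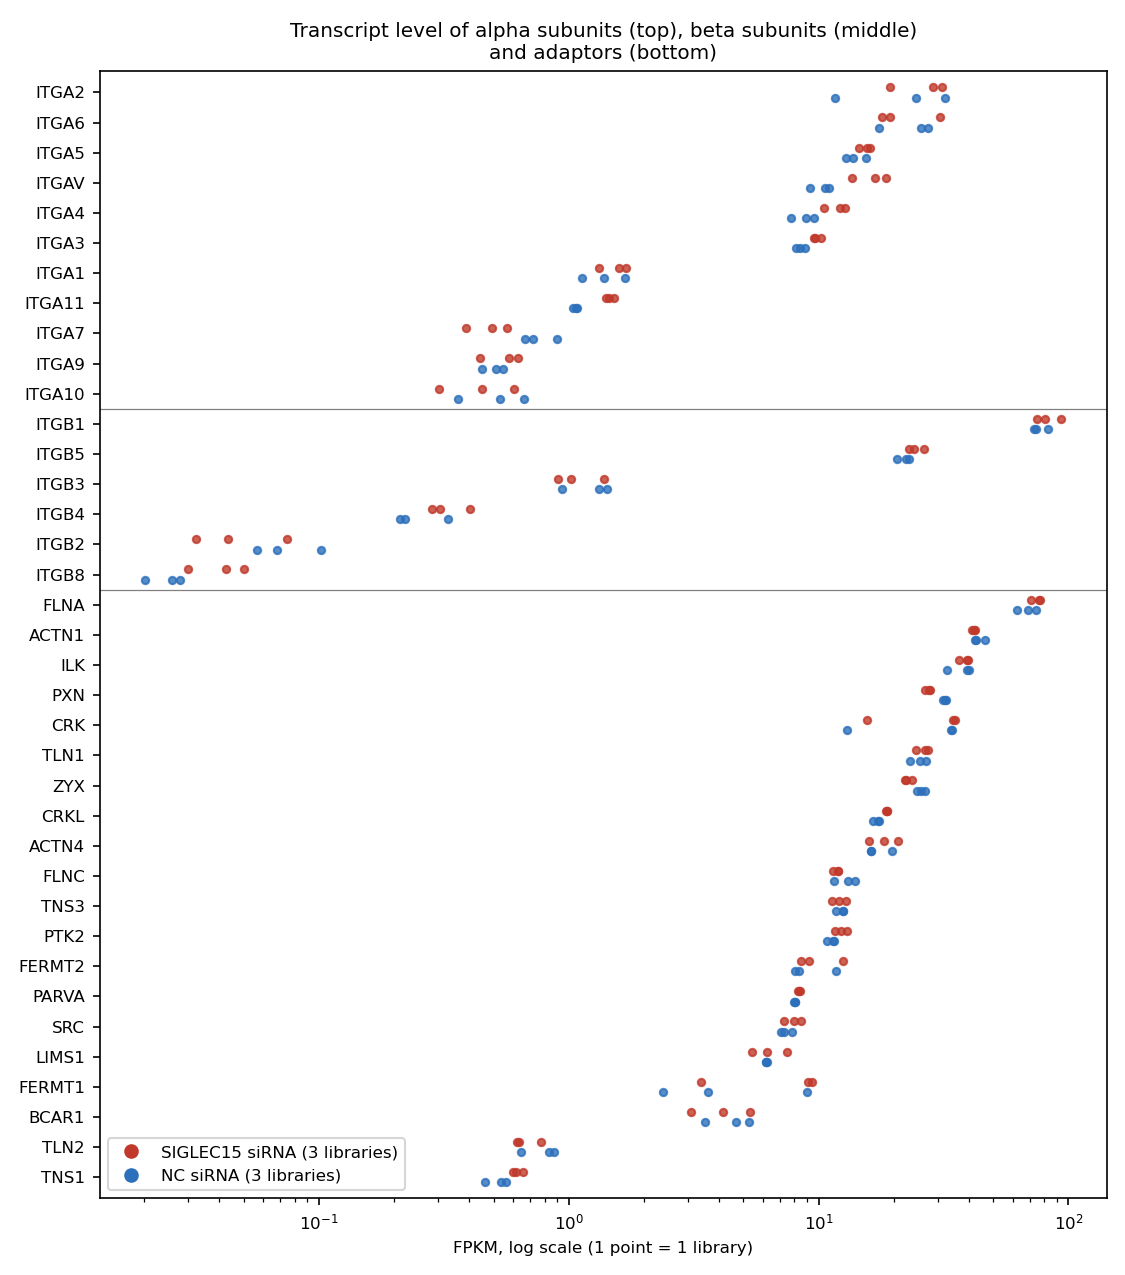
FPKM (x axis, log scale) of the 37 tested members in 3 SIGLEC15 siRNA libraries (red, upper) and 3 NC siRNA libraries (blue, lower), ordered by mean level within alpha subunits, beta subunits and adaptors. In FPKM, ITGB1 and FLNA lie highest, at 79.7 and 71.5 over the 6 libraries (per kilobase of the longest coding transcript ACTN1 stands above FLNA), and 10 of the 39 members average under 1 FPKM.

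On TMM-scaled CPM the groups lay fully apart in 14 of the 37 tested members (37.8%), against 26.6% of all tested genes; 10 of them were higher and 4 lower with SIGLEC15 siRNA. Those higher were ITGAV, ITGA11, ITGA4, ITGA3, ITGB5, ITGB8, PTK2, PARVA, CRKL and TNS1, and those lower were PXN, ZYX, ACTN1 and ITGA7. Of these, ITGB5 lay apart in CPM but not in FPKM. DESeq2, the alternative test, called 6 members (16.2%) against 17.1% of all genes: ITGAV (adjusted p = 2.90e-07), ITGA11 (2.29e-05), ITGA4 (2.63e-04) and ITGA3 (0.00732) higher, and PXN (8.45e-05) and ITGA7 (0.0126) lower. For 18 members the 95% interval lay wholly within a log2 fold change of 0.5 either way (1.41-fold), and for the other 19 it reached past that bound. Over the 26 members with a mean of at least 3 FPKM the median within-group SD of the log2 values was 0.108, against 0.119 over the 8410 genes at that level.

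Genes that act beside these members were read from the same test. Of 29 tested further focal adhesion proteins, among them vinculin, zyxin relatives and LIM-domain proteins, 0 passed (median log2 fold change 0.08, 3 by DESeq2). Of 20 tested proteins that regulate integrin activation, serve traffic or associate with integrins, 0 passed (median 0.07, 5 by DESeq2). Over all tested genes the shares called were 4.65% by edgeR and 17.1% by DESeq2.

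Of 17 tested extracellular ligands of integrins, 3 rose, 2 fell and 12 did not pass (29.4% called, against 4.65% of all tested genes, of which 2.22% were higher and 2.43% lower; median log2 fold change 0.18). The list was drawn up with earlier results of these data known, and CCN1, CCN2 and ICAM1 belong to those results. The 29.4% is therefore not independent support for a change of ligands as a set. Without SIGLEC15 siRNA replicate 1 and NC siRNA replicate 3 together, 0 of these ligands were called higher and 0 lower. That fit called 70 genes in all, and each ligand called in the reported fit kept the sign of its log2 fold change. ICAM1, the ligand of leukocyte integrins, had 24.1, 26.5 and 20.8 FPKM with SIGLEC15 siRNA and 15.5, 12.6 and 14.1 FPKM with NC siRNA (log2 fold change 0.76, edgeR adjusted p = 0.0163). THBS1, thrombospondin, had 18.6, 20.6 and 22.7 FPKM with SIGLEC15 siRNA and 14.4, 14.8 and 12.9 FPKM with NC siRNA (0.56, adjusted p = 0.022). The matricellular genes CCN2 and CCN1, whose proteins bind ITGAV receptors, fell: CCN2 had 37.1, 33.4 and 48.2 FPKM with SIGLEC15 siRNA and 107, 138 and 119 FPKM with NC siRNA (-1.61, adjusted p = 0.00539).

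CCN1 had 77.7, 68.4 and 79.4 FPKM with SIGLEC15 siRNA and 112, 118 and 116 FPKM with NC siRNA (-0.62, edgeR adjusted p = 0.0124). TGFBI, a matrix protein bound by integrins and named after its values were seen, had 88.2, 85.3 and 81.0 FPKM with SIGLEC15 siRNA and 58.2, 68.5 and 50.8 FPKM with NC siRNA (0.52, adjusted p = 0.048). In each of these 5 genes the groups did not overlap. The CCN2 call held without any single library and that of CCN1 ended without NC siRNA replicate 2 (adjusted p = 0.058). The ICAM1 call ended without SIGLEC15 siRNA replicate 1 or 2 or NC siRNA replicate 2 or 3 (0.0614 to 0.0684), that of THBS1 without any library but SIGLEC15 siRNA replicate 1 (0.0525 to 0.0809), and that of TGFBI without any but NC siRNA replicate 2 (0.10 to 0.145).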

How the data were processed

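Paired-end Illumina reads came from poly(A) RNA of 143B cells, per the labels' protocols. The authors deposited whole-number counts and FPKM per gene and library, per the file headers. HISAT, StringTie and edgeR appear in the submitters' processing notes, without versions. The genome build, the strand setting and the counting step are not given in the sources used. A floor of 0.0001 stands in the FPKM of genes without counts. FPKM divided by TMM-scaled CPM varied by at most 3.48% between libraries for genes with a mean of at least 3 FPKM and 100 counts in every library.

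The count test was edgeR's quasi-likelihood F test (edgeR 4.0.16, R 4.3.3) after filterByExpr (minimum count 10, minimum total 15) and TMM, with 3 SIGLEC15 siRNA and 3 NC siRNA libraries and no covariate, over all 18910 tested genes, called at a Benjamini-Hochberg adjusted p under 0.05. An SE is the size of the log2 fold change over the root of its F, and intervals are 95%. Within-group spread is the SD of log2(FPKM + 0.1), pooled over the groups. Alternatives were DESeq2 1.42.0, median-of-ratios size factors, other filters, limma 3.58.1 (limma-trend) on the log2 of FPKM plus a pseudocount of 1 or 0.1 where the mean FPKM reached 1, the replicate number as a block, and libraries left out.

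Members were fixed by name. Per-library values are given for called members, for the most abundant of each role and for ITGB1 and ITGAV; other members with per-library values were picked after their values were seen. Up to 4 called genes are named per accompanying list, and TGFBI was named in addition after its values were seen. The members and lists were chosen with earlier results of these data known, and the lists were not trimmed afterwards; CCN1, CCN2 and ICAM1 belong to earlier results and are not independent support. TGFB1 and SP7 were not analysed here, and 1 further list is not reported here. No deposited column was left without a sample (0 columns).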

Additional observations from a re-analysis of the deposited data

How the results depend on the processing

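The member counts moved with the test: 2 higher and 0 lower in the reported fit, 4 and 2 with DESeq2, 1 higher with no filter beyond 1 count, 1 higher with limma-trend at either pseudocount, and 1 lower with a mean FPKM of at least 1 or limma-trend on log2(FPKM + 1). With libraries left out singly 0 to 1 members were called higher, and 0 without SIGLEC15 siRNA replicate 1 and NC siRNA replicate 3 together, a choice made after seeing the data. The replicate block called 0 members higher (ITGAV adjusted p = 0.134, ITGA11 0.209) and 50 genes in all against 879; same-numbered libraries correlated at -0.0489, 0.0111 and -0.0626 in their deviations, so the numbers are not shown to pair them. ITGAV kept its call in 7 and ITGA11 in 3 of 14 alternatives, always with a positive sign. PXN passed in 3: DESeq2, a mean FPKM of at least 1 (adjusted p = 0.04) and limma-trend on log2(FPKM + 1) (0.0485).

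Under DESeq2, which called 17.1% of all genes, the list of other focal adhesion proteins gave 1 higher and 2 lower. The list of integrin regulators, traffic and associated proteins gave 3 higher and 2 lower, and that of ligands 7 higher and 3 lower. Without the pair of libraries named above, 0 ligands were called higher and 0 lower. That fit called 70 genes in all, from 2 libraries a group. Its log2 fold changes were 0.745 for ICAM1, 0.568 for THBS1, 0.389 for TGFBI and -0.639 for CCN1. That of CCN2 ran from -1.78 to -1.49 over all alternatives.

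Of the 37 tested members 27 kept their sign in every alternative and 10, none of them called, did not. With 1 library left out the log2 fold change ran from -0.10 to 0.53 for ITGA2, -0.361 to 0.0918 for ITGA6, -0.446 to 0.00691 for ITGA10, -0.0539 to 0.0873 for ILK, -0.0938 to 0.166 for LIMS1, -0.0707 to 0.283 for FERMT2, -0.321 to 0.0800 for BCAR1, -0.264 to 0.362 for CRK, -0.0521 to 0.0109 for TNS3 and -0.0325 to 0.182 for ACTN4. Without the pair LIMS1 stood at -0.0766, ACTN4 at -0.0672 and BCAR1 at -0.46. The share difference ran from -4.14 to 4.79 points for ITGA2 and from -2.13 to 0.522 points for ITGB1. The cause of these differences was not tested. With 3 libraries a group, members such as CRK and FERMT1 had intervals too wide to show a change of 1.41-fold.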
